A study of Arabidopsis thaliana with 18 samples.

Results

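The genes described here are the nuclear genes of the photosynthetic membrane and of Rubisco in Arabidopsis thaliana: the light-harvesting antenna proteins of photosystem I (LHCA) and photosystem II (LHCB), the nuclear subunits of photosystem I (PSA) and photosystem II (PSB), plastocyanins, ferredoxins and the Rieske protein, a pair of ATP synthase subunits, and the small subunits and the activase of Rubisco. They were chosen by gene identifier from their known function, and number 53 of the 33557 genes in the deposited table. Their levels were compared between seedlings of the mutant stch4-1, which carries a defect in REIL2 (a cytosolic factor of large ribosomal subunit maturation, also called STCH4), and wild-type Col-0 seedlings (WT). Both groups were 14 days old, were grown on 1/2 MS medium with sucrose, and had been kept at 4 °C for 4 h before total RNA was taken from whole seedlings. Each group had 3 libraries. The study's 12 samples from other times (0 h and 24 h of cold) were not used here, so the cold response itself is not described.

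Photosystem II uses light to draw electrons from water, plastocyanin carries them from the cytochrome complex to photosystem I, and ferredoxin takes them on to the reductase that makes NADPH. Most reaction-centre proteins are encoded in the plastid, whereas the antenna proteins and many smaller subunits are encoded in the nucleus, made in the cytosol and imported. In green seedlings the nuclear genes are among the most abundant transcripts, and light, the clock and signals from the plastid are known to act on them.

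The mutated gene, REIL2 (AT2G24500, on chromosome 2), served as a check of the labels. REIL2 read 5.65, 5.44 and 5.80 FPKM in stch4-1, against 31.2, 34.1 and 36.0 FPKM in WT (libraries a, b and c of each genotype, in this order throughout). It fell in stch4-1 (log2 fold change -2.39 ± 0.064 (SE), limma adjusted p = 1.7e-06). FPKM, the unit of all levels here, is the number of fragments scaled by transcript length and library size, so levels of different genes can be set side by side. FPKM keeps no total count. Relative depth, read from the step size of low values, was 1.01 to 1.23 in stch4-1 and 1 to 1.44 in WT, with the shallowest library set to 1. Summed FPKM over all genes was 947218 to 987059 in stch4-1 and 878394 to 919309 in WT, so the groups did not overlap.

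The photosynthesis genes were measured at somewhat higher levels in stch4-1. Of the 53 members, 18 rose and 0 fell in stch4-1 at a limma adjusted p under 0.05, which is 34.0% of them; over the 19289 genes tested, 18.5% rose and 14.0% fell, 32.6% in all. In 49 of the 53 members the log2 fold change was above 0, and its median was 0.21, against 0.01 over all tested genes. The changes were small, with log2 fold changes of 0.12 to 0.46 among the 18 that rose. Groups did not overlap, with stch4-1 higher, for 19 members, and with stch4-1 lower for 0; over all tested genes these were 25.1% and 22.7%. Members together took 14.6, 13.7 and 16.2% of summed FPKM in stch4-1 and 13.3, 15.2 and 13.8% in WT, ranges that overlap. The count depended on the scale set between libraries: 8 members rose and 0 fell when summed FPKM was made equal (10.0% and 24.6% of all tested genes), and 2 rose and 6 fell under quantile normalization (13.6% and 16.1% of all), where the median was -0.018. It was 11 higher and 0 lower with no filter on low genes (13.2% and 10.3% of all), 9 and 0 with a trend with transcript length removed (16.3% and 10.4%), and 27 and 0 with a trend with GC content removed (19.1% and 13.8%). Of the 18, 2 passed under all 17 alternatives and 3 more lost their call under quantile normalization alone, while PSBQ2 and ATPD lost theirs under 14. Most root markers moved the other way: 11 of 15 tested fell, while 3 had a log2 fold change above 0 and did not pass. The summed level of the root markers was 239 to 241 FPKM in stch4-1 and 312 to 317 FPKM in WT. Their part in the result was not tested. In bulk seedlings, fewer cells of a type and less RNA per cell cannot be told apart.

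**Figure D1:**
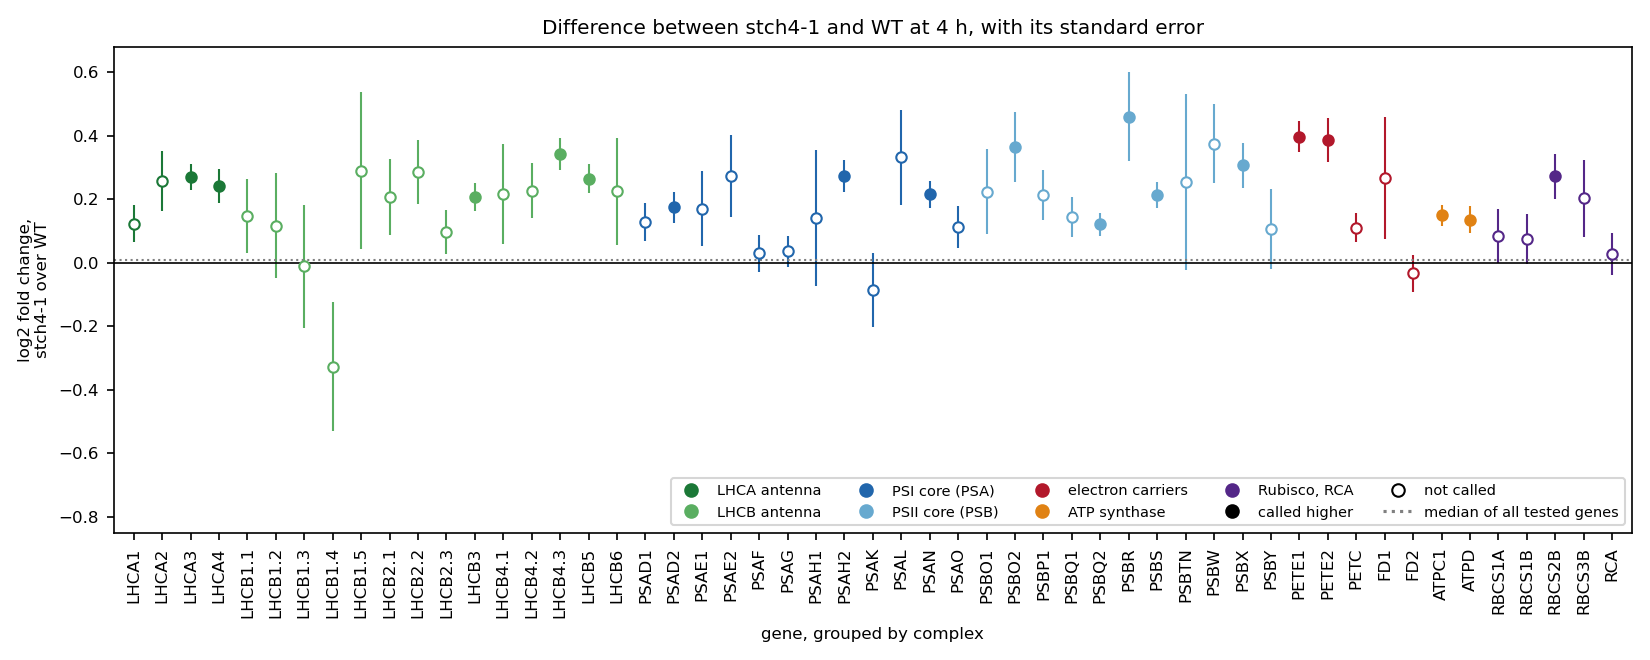
Log2 fold change of each of the 53 genes, stch4-1 over WT, on the log2(FPKM + 1) scale, with its standard error as a bar; filled points passed an adjusted p under 0.05. The 18 filled points all lie above 0, and 4 open points lie below it.

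The antenna of photosystem I is a belt of LHCA proteins. LHCA3 and LHCA4 rose, which is 50% of the 4 genes, against 18.5% of all tested genes. The median log2 fold change of the 4 genes was 0.25. Under quantile normalization the median was 0.027 and 0 rose, and at equal summed FPKM it was 0.145 and 1 rose. LHCA3 (AT1G61520, chromosome 1) was almost identical between libraries of a genotype. LHCA3 read 3246, 3244 and 3247 FPKM in stch4-1, against 2742, 2718 and 2614 FPKM in WT. The groups were separate (log2 fold change 0.27 ± 0.041 (SE), limma adjusted p = 0.0021). LHCA4 (AT3G47470, chromosome 3) was the most abundant of the 4. LHCA4 was measured at 5002, 4867 and 5381 FPKM in stch4-1, against 4184, 4404 and 4301 FPKM in WT. It too was higher in every stch4-1 library than in any WT library (log2 fold change 0.24 ± 0.054 (SE), limma adjusted p = 0.011). LHCA4 lost its call with no filter, under quantile normalization and at equal summed FPKM. LHCA1, the member with the smallest difference, read 2966, 2848 and 3252 FPKM in stch4-1 and 2717, 2861 and 2734 FPKM in WT, which overlap (log2 fold change 0.12, adjusted p = 0.14). LHCA2 did not pass either (log2 fold change 0.26, adjusted p = 0.072); it passed without WT b (adjusted p = 0.021). Of its 50-base stretches, 8.76% also occur in another transcript, AT5G28450. Summed over the 4 genes, 13732, 13328 and 14779 FPKM were measured in stch4-1 and 11645, 12426 and 11714 FPKM in WT, without overlap.

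The antenna of photosystem II consists of LHCB1, LHCB2 and LHCB3, which form its major trimers, and of the single proteins LHCB4, LHCB5 and LHCB6, which link the trimers to the core. Of the 14 genes, 3 rose (21.4%, near the 18.5% of all tested genes): LHCB3, LHCB4.3 and LHCB5. The other 11 did not pass, and the median log2 fold change was 0.21. That median was 0.071 without stch4-1 c and 0.11 without WT a, and 5 genes rose without WT b. LHCB5 (AT4G10340, chromosome 4) encodes a minor antenna protein. LHCB5 read 5506, 5354 and 5538 FPKM in stch4-1, against 4406, 4632 and 4604 FPKM in WT. All stch4-1 libraries were above all WT libraries (log2 fold change 0.27 ± 0.046 (SE), limma adjusted p = 0.0039). LHCB3 (AT5G54270, chromosome 5) showed the same separation. LHCB3 read 5334, 5179 and 5273 FPKM in stch4-1, against 4569.5, 4665 and 4437 FPKM in WT. LHCB3 (log2 fold change 0.21 ± 0.045 (SE), limma adjusted p = 0.010) missed the threshold without WT c or stch4-1 a (adjusted p = 0.054 to 0.062). LHCB4.3 (AT2G40100, chromosome 2), the least abundant of the 53 genes, had the highest log2 fold change of the antenna genes. LHCB4.3 read 106, 98.5 and 111 FPKM in stch4-1, against 84.9, 83.6 and 79.5 FPKM in WT. Its groups were far apart relative to their spread (log2 fold change 0.34 ± 0.051 (SE), limma adjusted p = 0.0021). With PETE1 it was 1 of 2 members that passed under all 17 alternatives.

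The LHCB1 copies did not pass the test in either direction. LHCB1.3 (AT1G29930, chromosome 1) was the most abundant antenna transcript. LHCB1.3 read 8615, 6907 and 11570 FPKM in stch4-1, against 7773, 10927 and 8297 FPKM in WT. The libraries of each genotype differed far more than the genotypes (log2 fold change -0.011 ± 0.19 (SE), limma adjusted p = 0.97). LHCB1.4 (AT2G34430, chromosome 2) had the lowest log2 fold change of all 53. LHCB1.4 read 474, 411 and 693 FPKM in stch4-1, against 549, 812 and 599 FPKM in WT. The groups overlapped (log2 fold change -0.33 ± 0.20 (SE), limma adjusted p = 0.25), and only without stch4-1 c, where its log2 fold change was -0.54, did it pass as lower (adjusted p = 0.040). The other copies LHCB1.1, LHCB1.2 and LHCB1.5 had log2 fold changes of 0.15, 0.12 and 0.29. LHCB2.1, LHCB2.2 and LHCB2.3 had 0.21, 0.29 and 0.10, and LHCB4.1, LHCB4.2 and LHCB6 had 0.22, 0.23 and 0.22. Of these, LHCB2.2 passed without WT b (adjusted p = 0.012) and LHCB4.2 passed without WT b or stch4-1 b (adjusted p = 0.030 to 0.045).

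Copies of LHCB1 are alike enough for reads to be shared. The first 90 bases of the coding sequences of the 3 neighbouring copies on chromosome 1 are printed to show how alike they are, from the RefSeq assembly TAIR10.1, with capitals at the 9 positions where the 3 differ; the levels were made on TAIR10. The windows are chr1:10475803-10475892, minus strand, for LHCB1.1, chr1:10473157-10473246, minus strand, for LHCB1.2, and chr1:10478071-10478160, plus strand, for LHCB1.3.
LHCB1.1: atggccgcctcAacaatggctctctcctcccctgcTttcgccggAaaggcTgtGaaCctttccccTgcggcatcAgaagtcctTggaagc
LHCB1.2: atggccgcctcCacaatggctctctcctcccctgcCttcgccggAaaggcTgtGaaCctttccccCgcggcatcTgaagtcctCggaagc
LHCB1.3: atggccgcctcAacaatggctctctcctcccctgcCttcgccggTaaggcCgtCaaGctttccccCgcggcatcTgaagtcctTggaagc
Over the 804 bases of the coding sequences, these copies differ from each other at 29 to 35 positions. Of the 50-base stretches of each transcript, 20.5% of those of LHCB1.1, 10.6% of LHCB1.2, 17.0% of LHCB1.3, 13.7% of LHCB1.4 and 17.3% of LHCB1.5 occur in another transcript, as do 20.2% of LHCB2.1 and 19.8% of LHCB2.2. How the authors assigned such reads is not given in the sources used here, so levels of these copies are uncertain relative to each other.

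Of the 12 photosystem I subunit genes, 3 rose (25%, near the 18.5% of all tested genes): PSAD2, PSAH2 and PSAN. The median log2 fold change was 0.16. Without stch4-1 c the median was 0.072. With a length trend removed it was 0.050 and 0 genes rose, and at equal summed FPKM it was 0.051 and 1 rose. PSAD and PSAE form the stromal side where ferredoxin docks. PSAD2 read 479, 454 and 498 FPKM in stch4-1, against 402, 428 and 437 FPKM in WT. PSAD2 (log2 fold change 0.17 ± 0.048 (SE), limma adjusted p = 0.026) was separate between groups but missed the threshold without WT a, stch4-1 a or stch4-1 c (adjusted p = 0.069 to 0.080). PSAH, PSAL and PSAO lie where the mobile antenna of photosystem II docks. PSAH2 read 2260.5, 2219 and 2396 FPKM in stch4-1, against 1804, 1976 and 1904 FPKM in WT. PSAH2 rose with no overlap (log2 fold change 0.27 ± 0.050 (SE), limma adjusted p = 0.0050). PSAL had the highest log2 fold change of the complex, but its libraries were widely spread. PSAL read 2410, 2197 and 3024 FPKM in stch4-1, against 1713, 2452 and 1912 FPKM in WT. These overlap (log2 fold change 0.33 ± 0.15 (SE), limma adjusted p = 0.13), and PSAL passed without WT b (adjusted p = 0.030). PSAN is a lumenal subunit on the side of plastocyanin. PSAN read 3068, 3015 and 3044 FPKM in stch4-1, against 2714, 2539.8 and 2604 FPKM in WT. The libraries of each genotype lay close together and the groups apart (log2 fold change 0.22 ± 0.043 (SE), limma adjusted p = 0.0067). PSAO was the most abundant of the 12. PSAO read 3063, 2702 and 3230.5 FPKM in stch4-1, against 2747, 2811 and 2735 FPKM in WT. It did not pass (log2 fold change 0.11, adjusted p = 0.23), and passed as higher without stch4-1 b (adjusted p = 0.040). PSAK, at the edge next to the antenna, had the lowest value. PSAK read 1523, 1415 and 1835 FPKM in stch4-1, against 1502, 1934 and 1627 FPKM in WT, which overlap (log2 fold change -0.086, adjusted p = 0.60). The remaining genes PSAD1, PSAE1, PSAE2, PSAF, PSAG and PSAH1 did not pass, with log2 fold changes of 0.030 (PSAF) to 0.27 (PSAE2).

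Of the 11 photosystem II subunit genes, 5 rose (45.5%, against 18.5% of all tested genes): PSBO2, PSBQ2, PSBR, PSBS and PSBX. The median log2 fold change was 0.22. The median was 0.14 without stch4-1 c, and 2 genes rose when any 1 library other than WT b and stch4-1 b was left out. PSBO, PSBP and PSBQ shield the manganese cluster that splits water, and PSBR helps them bind. PSBR (AT1G79040, chromosome 1) was the most abundant of these genes and had the highest log2 fold change of the 53. PSBR read 5494, 4736 and 6651 FPKM in stch4-1, against 3594, 4776 and 3869 FPKM in WT. The lowest stch4-1 library was just under the highest WT library (log2 fold change 0.46 ± 0.14 (SE), limma adjusted p = 0.037). PSBR missed the threshold without any 1 of 4 of the 6 libraries (all but stch4-1 b and WT b; adjusted p = 0.089 to 0.11). PSBO2 read 868, 799 and 1038 FPKM in stch4-1, against 626, 791 and 679 FPKM in WT. PSBO2 did not overlap between groups (log2 fold change 0.36 ± 0.11 (SE), limma adjusted p = 0.037), but missed the threshold without any 1 of 4 of the 6 libraries (all but stch4-1 b and WT b; adjusted p = 0.076 to 0.11). PSBQ2 read 1999.6, 1932 and 1963 FPKM in stch4-1, against 1791, 1807 and 1818 FPKM in WT. PSBQ2 varied least within genotypes of all members (log2 fold change 0.12 ± 0.037 (SE), limma adjusted p = 0.036), and missed the threshold without any 1 of the 6 libraries (adjusted p = 0.061 to 0.15).

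PSBS, the sensor of lumen acidity that switches on heat dissipation in the antenna, rose. PSBS read 2364, 2315 and 2455 FPKM in stch4-1, against 2035, 2084 and 2030.2 FPKM in WT. No libraries of the groups overlapped (log2 fold change 0.21 ± 0.041 (SE), limma adjusted p = 0.0059). PSBX is a small membrane subunit. PSBX read 2931, 2982 and 3416 FPKM in stch4-1, against 2353, 2622 and 2551 FPKM in WT. It rose as well (log2 fold change 0.31 ± 0.070 (SE), limma adjusted p = 0.013). PSBW, which holds photosystem II and its antenna together, was just outside the threshold (log2 fold change 0.37, adjusted p = 0.051), and passed without WT b or stch4-1 b (adjusted p = 0.018 to 0.039). PSBY had the smallest difference. PSBY read 887, 819 and 1086 FPKM in stch4-1, against 752, 1008 and 834 FPKM in WT, which overlap (log2 fold change 0.11, adjusted p = 0.55). PSBO1, PSBP1, PSBQ1 and PSBTN had log2 fold changes of 0.22, 0.21, 0.15 and 0.25 and did not pass; PSBP1 passed without WT b (adjusted p = 0.033) and PSBQ1 without WT b (adjusted p = 0.042). Summed over the 11 genes, levels were 24383, 22805 and 28552 FPKM in stch4-1 and 18814, 23168 and 20230 FPKM in WT, and WT b lay within the stch4-1 range.

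Both plastocyanin genes rose, which is 40% of the 5 carrier genes, against 18.5% of all tested genes. The median log2 fold change of the 5 carrier genes was 0.27, against 0.084 without stch4-1 c and 0.14 without WT a. PETE1 (AT1G76100, chromosome 1) is the minor copy. PETE1 read 165, 164 and 181 FPKM in stch4-1, against 135, 126 and 125 FPKM in WT. The groups were well apart (log2 fold change 0.40 ± 0.049 (SE), limma adjusted p = 0.00087), and PETE1 passed under all 17 alternatives. PETE2 (AT1G20340, chromosome 1) is the major copy. PETE2 read 3268, 3102 and 3636 FPKM in stch4-1, against 2439, 2720.1 and 2481 FPKM in WT. It rose by a like amount (log2 fold change 0.39 ± 0.070 (SE), limma adjusted p = 0.0047). LHCA3, LHCB5 and PETE2 were the 3 members that lost their call under quantile normalization and under no other alternative. PETC, the Rieske protein of the cytochrome complex, did not overlap between groups but did not pass (log2 fold change 0.11, adjusted p = 0.092). FD2, the main leaf ferredoxin, had the lowest value of the carriers. FD2 read 2251, 2103 and 2434 FPKM in stch4-1, against 2250.4, 2292 and 2394 FPKM in WT, which overlap (log2 fold change -0.033, adjusted p = 0.70). FD1 did not pass (log2 fold change 0.27, adjusted p = 0.32).

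The ATP synthase genes ATPC1, for the rotating gamma subunit, and ATPD, for the delta subunit, both rose slightly. ATPC1 read 824, 818 and 799 FPKM in stch4-1, against 724, 731 and 746 FPKM in WT. ATPC1 (log2 fold change 0.15 ± 0.033 (SE), limma adjusted p = 0.012) missed the threshold without stch4-1 a (adjusted p = 0.057). ATPD read 914, 875 and 949.6 FPKM in stch4-1, against 806, 835 and 850.0 FPKM in WT. ATPD was the more abundant (log2 fold change 0.14 ± 0.043 (SE), limma adjusted p = 0.043) and missed it without any 1 of 5 of the 6 libraries (all but stch4-1 b; adjusted p = 0.072 to 0.12). Neither gene overlapped between groups. Over all tested genes, 18.5% rose, and 25.1% did not overlap with stch4-1 higher.

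**Figure D2:**
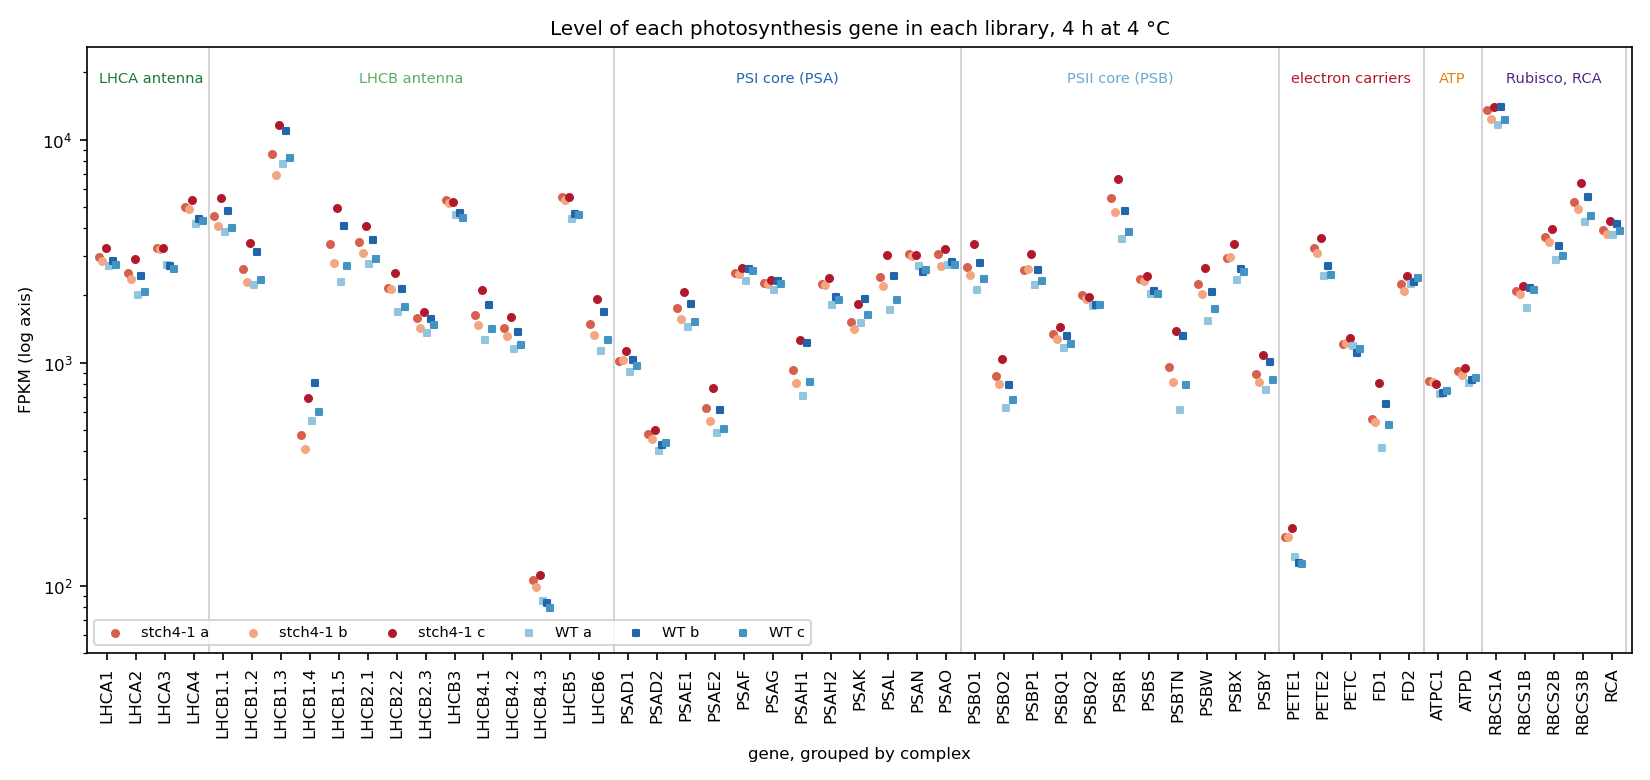
FPKM of each gene in each of the 6 libraries on a log axis, grouped by complex; red circles are stch4-1 and blue squares are WT. Levels run from LHCB4.3, at 79.5 FPKM in WT c, to RBCS1A, at 14016 FPKM in stch4-1 c.

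Of the 4 Rubisco small subunit genes and RCA, which encodes the activase that clears inhibitors from Rubisco, 1 rose. This is 20% of the 5, near the 18.5% of all tested genes that rose. The median log2 fold change was 0.083. The median was 0.027 without WT a, 0.045 without stch4-1 c, 0.16 without WT b and 0.14 without stch4-1 b, and 0 rose when any 1 library other than WT b and stch4-1 b was left out. RBCS1A (AT1G67090, chromosome 1) was the most abundant of all 53. RBCS1A read 13551, 12362 and 14016 FPKM in stch4-1, against 11597, 13923 and 12227 FPKM in WT. The groups overlapped widely (log2 fold change 0.083 ± 0.085 (SE), limma adjusted p = 0.48). RBCS2B (AT5G38420, chromosome 5) rose. RBCS2B read 3662, 3467 and 3981 FPKM in stch4-1, against 2875, 3327 and 2998 FPKM in WT. The groups did not overlap (log2 fold change 0.27 ± 0.072 (SE), limma adjusted p = 0.022), and RBCS2B missed the threshold without any 1 of 4 of the 6 libraries (all but stch4-1 b and WT b; adjusted p = 0.057 to 0.079). RCA had the smallest difference of the 5. RCA read 3932, 3775 and 4327 FPKM in stch4-1, against 3738, 4171 and 3884 FPKM in WT, which overlap (log2 fold change 0.028, adjusted p = 0.77). RBCS1B and RBCS3B had log2 fold changes of 0.074 and 0.20 and did not pass.

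RBCS1B, RBCS2B and RBCS3B lie next to each other on chromosome 5, and 13.8%, 21.4% and 18.4% of their 50-base stretches occur in another transcript, so their levels relative to each other are uncertain too. The first 90 coding bases are shown because only RBCS2B of these copies passed, with capitals at the 7 positions where the copies differ; the windows in TAIR10.1 are chr5:15385066-15385155, minus strand, chr5:15381889-15381978, minus strand, and chr5:15378217-15378306, minus strand, in the order of the names.
RBCS1B: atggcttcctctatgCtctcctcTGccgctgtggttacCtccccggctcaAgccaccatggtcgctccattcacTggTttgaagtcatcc
RBCS2B: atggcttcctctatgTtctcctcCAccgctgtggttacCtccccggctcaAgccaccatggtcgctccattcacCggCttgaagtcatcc
RBCS3B: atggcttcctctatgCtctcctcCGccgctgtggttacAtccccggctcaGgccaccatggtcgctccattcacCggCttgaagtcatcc
RBCS1B and RBCS2B differ at 15 of 546 coding bases.

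The share of each copy within its family was compared over 11 families. In 5 of them a copy's share did not overlap between genotypes; these shares are a description, with no test, and an exact permutation test of 3 against 3 libraries cannot go below 0.1. For single genes, levels did not overlap between genotypes in 25.1% (stch4-1 higher) and 22.7% (stch4-1 lower) of all tested genes, so separate shares in some families are not read as a result about the members. LHCB1.3 made up 43.3 ± 1.37% of LHCB1 in stch4-1 and 46.2 ± 0.284% in WT (SD, n = 3 each), and LHCB1.4 made up 2.52 ± 0.125% in stch4-1 and 3.35 ± 0.0645% in WT. LHCB2.2 made up 30.7 ± 1.09% of LHCB2 in stch4-1 and 29.1 ± 0.36% in WT. PSAE2 took 26.4 ± 0.508% of PSAE in stch4-1 and 25.0 ± 0.0997% in WT. PSBO2 took 24.1 ± 0.635% of PSBO in stch4-1 and 22.4 ± 0.38% in WT. RBCS2B took 15.0 ± 0.164% of RBCS in stch4-1 and 13.7 ± 0.329% in WT, while RBCS1A took 54.1 ± 1.3% in stch4-1 and 56.1 ± 0.375% in WT. The share of PETE1 in plastocyanin overlapped between genotypes, at 4.86 ± 0.154% in stch4-1 and 4.83 ± 0.396% in WT. PSAE and PSBO copies shared no 50-base stretch with another transcript.

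**Figure D3:**
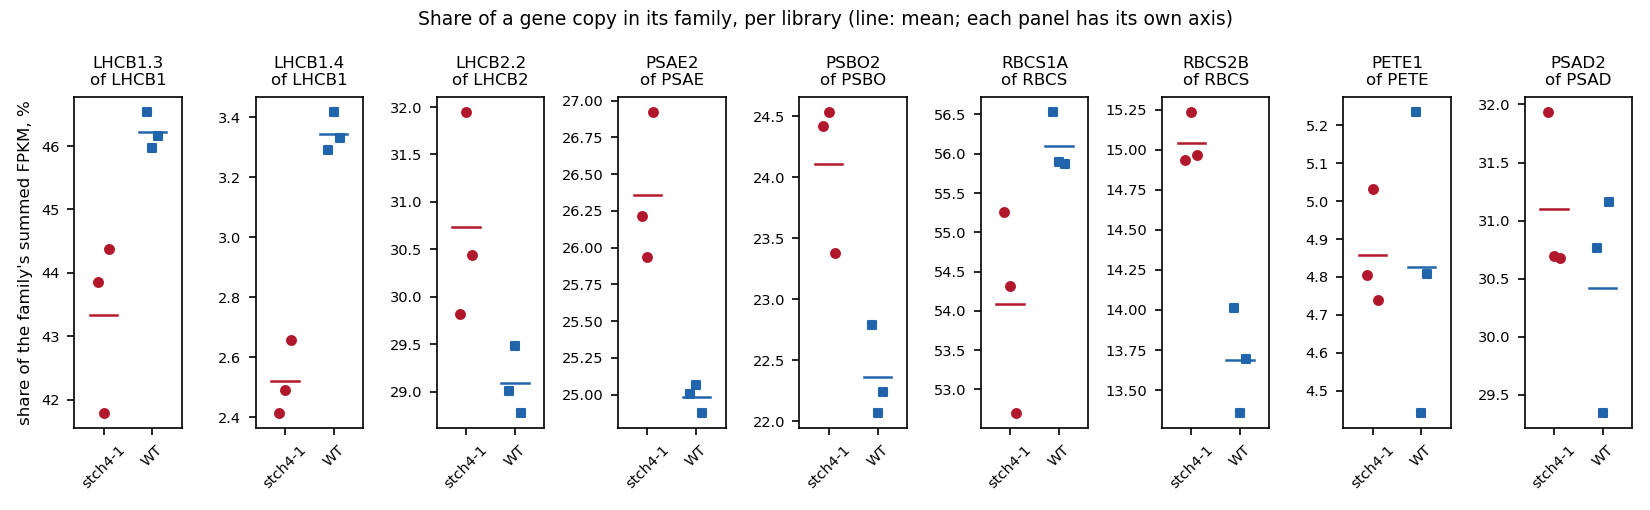
Share of a gene copy in the summed FPKM of its family, in percent, for each library (points) with the group mean (line); stch4-1 is left of WT and each panel has its own axis. Shares of LHCB1.3, LHCB1.4, LHCB2.2, PSAE2, PSBO2, RBCS1A and RBCS2B do not overlap between genotypes; those of PETE1 and PSAD2 do.

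Within each genotype 1 library stood above the others in most members. stch4-1 c was the highest stch4-1 library in 49 of 53 members and WT b the highest WT library in 43. Both held in 42, or 79.2%, against 15.9% of all tested genes. These libraries were picked by the members' own levels, so the contrast with all tested genes is partly set by that choice. stch4-1 b was the lowest stch4-1 library in 48 members and WT a the lowest WT library in 45. Across the 53 members, the excess of stch4-1 c over the mean of stch4-1 a and b ran parallel to the excess of WT b over the mean of WT a and c (Pearson r = 0.93, Spearman rho = 0.91 across genes, n = 53, which share the libraries; 0.15 by both measures over all tested genes). The pattern was not particular to the members: both libraries were highest in 11 of 16 Calvin cycle genes, or 68.8%, and the excesses ran parallel there too (r = 0.97, rho = 0.86, n = 16). Both were highest in 6 of 16 chlorophyll synthesis genes, or 37.5% (r of the excesses 0.78). The same held for 5 of 16 other electron transport genes, or 31.25% (r = 0.83). PSBTN, LHCB1.5, PSAH1 and LHCB1.4 had the largest spread within genotypes; LHCB3, LHCA3, PSAN, PSBQ2 and ATPC1 had little. The excess was larger in members of higher GC content (r = 0.62 for stch4-1 c and 0.54 for WT b, n = 53). Over all tested genes with a GC value these were 0.19 and 0.13. They were 0.50 and 0.49 in the chlorophyll synthesis genes, 0.41 and 0.47 in the other electron transport genes, and 0.24 and 0.17 in the Calvin cycle genes. Relative depth was 1.01 in stch4-1 c and 1.44 in WT b, so the libraries with the highest member levels were the shallowest of stch4-1 and the deepest of WT. The part of depth in this pattern was not tested; with a trend with GC content removed, 27 members rose, as given above. Without stch4-1 c, 12 members rose, 1 fell and the median log2 fold change was 0.098 (16.3% of all tested genes rose and 11.8% fell). Without WT b, 23 rose, 0 fell and the median was 0.27 (16.9% and 10.9% of all).

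The SD within genotypes enters the test, so called members are less spread by construction, and the following values are a description. The 18 that rose had a median SD within genotypes of 0.06 and a median log2 fold change of 0.27; the 35 others had 0.19 and 0.15. Across members, log2 fold change and that SD had a Pearson r of -0.029 (n = 53, which share the libraries).

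**Figure D4:**
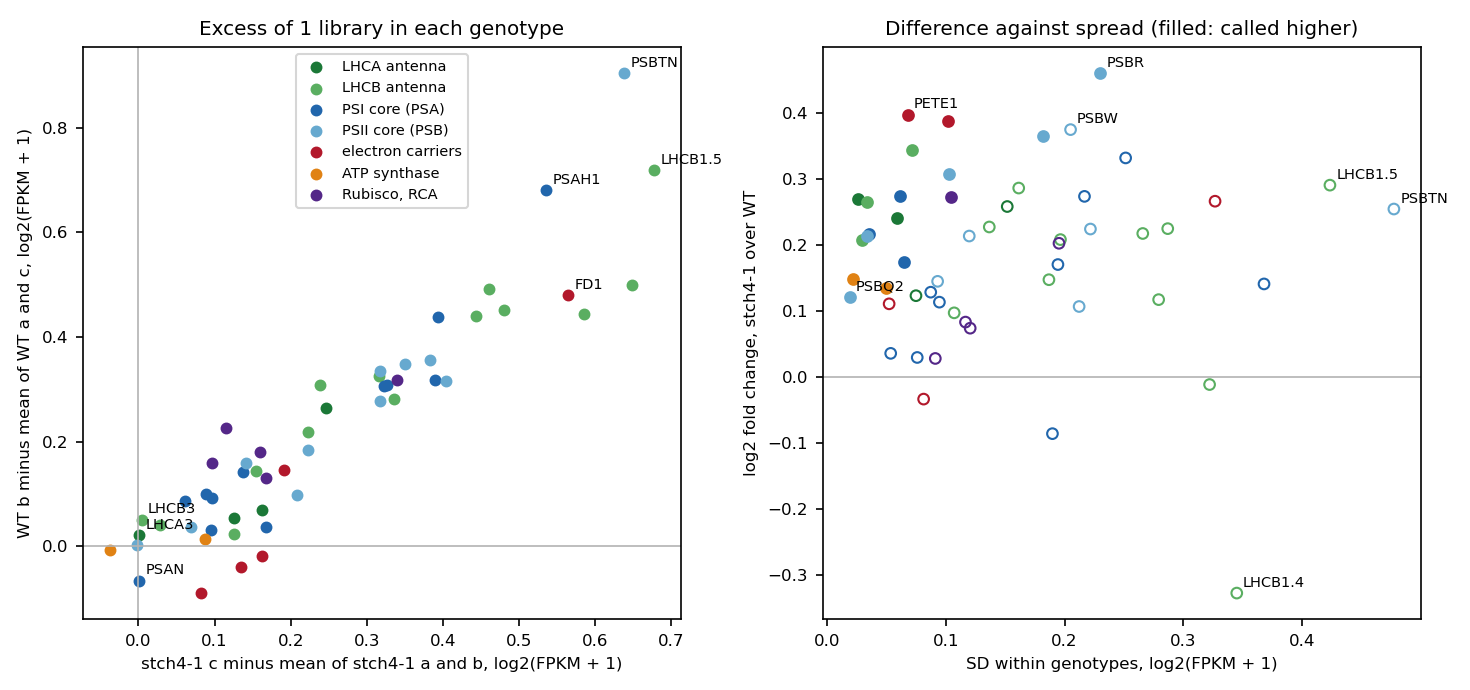
Left, the excess of stch4-1 c over stch4-1 a and b (x axis) and of WT b over WT a and c (y axis), on the log2(FPKM + 1) scale, 1 point per gene; right, log2 fold change (stch4-1 over WT) against the SD within genotypes, with filled points for genes that rose. The points at left run from ATPC1, near 0 on both axes, to PSBTN, 0.64 and 0.90; at right every filled point but those of PSBO2 and PSBR lies at an SD of up to 0.10.

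The 250 bases before the annotated start were searched for the G-box core CACGTG, which reads alike on both strands, and the I-box core GATAAG on both strands (CTTATC on the other); both are known from promoters of light-regulated plant genes. CACGTG occurred before 11 of 53 members, or 20.8%, and before 6.49% of the 27444 nuclear protein-coding genes; the I-box core occurred before 13 members, or 24.5%, and 12.3% of all. Among members that rose, 5 of 18 held CACGTG, and among the others 6 of 35. The I-box core occurred before 4 of 18 and 9 of 35. TATAAA, counted on the strand of the gene, occurred before 13 members, or 24.5%, and 32.9% of all. It occurred before 7 of the 18 that rose and 6 of the 35 others. Windows of 4 genes that overlap no other annotated gene are printed as examples. LHCA4, PSBQ2 and RBCS2B rose and hold CACGTG. RBCS1B, the neighbour of RBCS2B, did not pass, and its window holds neither CACGTG nor the I-box core. The last bases of that window resemble the first part of the RBCS2B window, so the windows of these neighbours do not cover the same stretch. Bases past the annotated start of RBCS1B were not searched, so a lack of either motif near this gene is not shown. In the 4 printed windows the call and CACGTG go together, which does not hold over the members. PSBQ1 did not pass and holds CACGTG, while LHCA3 rose and holds neither CACGTG nor the I-box core. Capitals mark CACGTG and the I-box core. The 4 windows come from TAIR10.1 at chr3:17495034-17495283, minus strand, chr4:2673244-2673493, minus strand, chr5:15382072-15382321, minus strand, and chr5:15385321-15385570, minus strand, in the order of the lines.
LHCA4: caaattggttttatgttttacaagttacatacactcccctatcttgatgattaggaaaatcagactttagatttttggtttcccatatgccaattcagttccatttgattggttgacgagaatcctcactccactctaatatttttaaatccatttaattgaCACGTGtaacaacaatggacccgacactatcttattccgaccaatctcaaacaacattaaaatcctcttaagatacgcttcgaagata
PSBQ2: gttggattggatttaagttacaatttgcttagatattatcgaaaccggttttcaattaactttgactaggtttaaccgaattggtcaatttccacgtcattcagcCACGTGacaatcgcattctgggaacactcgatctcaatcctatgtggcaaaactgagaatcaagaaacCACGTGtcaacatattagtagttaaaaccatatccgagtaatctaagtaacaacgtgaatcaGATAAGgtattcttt
RBCS2B: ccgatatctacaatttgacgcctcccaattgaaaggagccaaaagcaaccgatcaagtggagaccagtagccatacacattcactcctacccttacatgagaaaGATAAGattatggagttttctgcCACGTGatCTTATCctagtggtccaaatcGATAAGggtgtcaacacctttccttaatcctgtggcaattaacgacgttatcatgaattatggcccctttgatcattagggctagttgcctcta
RBCS1B: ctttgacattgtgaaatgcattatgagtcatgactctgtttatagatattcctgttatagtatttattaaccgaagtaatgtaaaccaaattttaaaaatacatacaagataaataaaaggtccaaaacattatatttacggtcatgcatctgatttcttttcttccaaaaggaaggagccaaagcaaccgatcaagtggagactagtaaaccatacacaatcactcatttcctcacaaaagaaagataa
A match is a description of these letters only, and no match says nothing about a factor.

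The rest of the pathway was read from the same fit, and its counts stand against the 18.5% of all tested genes that rose and the 14.0% that fell. Of 16 Calvin cycle genes, 3 rose and 1 fell, with a median log2 fold change of 0.091, so the share that rose was near that of all tested genes; GAPA2, for a subunit of the plastid glyceraldehyde-phosphate dehydrogenase, rose (log2 fold change 0.20, adjusted p = 0.0042) and TIM, for the plastid triose-phosphate isomerase, fell (log2 fold change -0.19, adjusted p = 0.023). Of 16 chlorophyll synthesis genes, 2 rose and 3 fell, with a median of 0.0043; HEMA1, which makes the first committed step, rose (log2 fold change 0.28, adjusted p = 0.00047) and CHLD, a subunit of magnesium chelatase, fell (log2 fold change -0.31, adjusted p = 0.0037). The count that fell was 1 without WT c, stch4-1 a or stch4-1 b. Among 16 other genes of electron transport and its regulation, 7 rose and 1 fell, with a median of 0.14. The count that rose was 3 without stch4-1 a, and at equal summed FPKM 2 rose and 3 fell. PETM, a small subunit of the cytochrome complex, read 1474, 1396 and 1388 FPKM in stch4-1 and 1006, 974 and 983 FPKM in WT (log2 fold change 0.52, adjusted p = 0.00010), a larger log2 fold change than that of any of the 53 members; FD3, the ferredoxin of non-green tissue, fell (log2 fold change -0.14, adjusted p = 0.034).

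Of 7 genes for import and insertion of the antenna proteins, 1 rose and 4 fell, and the median log2 fold change was -0.26. The 1 that rose lost its call when any 1 library other than WT b was left out. CPSRP43, which escorts antenna proteins through the stroma, rose (log2 fold change 0.21, adjusted p = 0.024), and TOC159, the import receptor, read 26.9, 29.6 and 28.6 FPKM in stch4-1 and 37.6, 38.8 and 39.5 FPKM in WT and fell (log2 fold change -0.43, adjusted p = 0.00051). Of 12 regulators, 4 rose and 2 fell, with a median of 0.081; 2 rose without WT c or stch4-1 b. PIF3, a repressor of greening in the dark, read 21.2, 21.2 and 21.2 FPKM in stch4-1 and 13.6, 14.2 and 14.7 FPKM in WT (log2 fold change 0.55, adjusted p = 0.00020). GUN1, a plastid protein of signalling to the nucleus, read 60.9, 63.0 and 59.0 FPKM in stch4-1 and 85.9, 85.5 and 84.5 FPKM in WT (log2 fold change -0.48, adjusted p = 0.00011).

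Of 15 plastid-encoded partner subunits, 5 rose and 0 fell, with a median log2 fold change of 1.22. Summed, they read 445, 663 and 686 FPKM in stch4-1 and 348, 59.5 and 231 FPKM in WT, and WT b, high in the nuclear genes, was lowest. psbH had the highest log2 fold change of those that rose (log2 fold change 2.90, adjusted p = 0.00097) and was listed at 0 in WT b; atpB had the lowest (log2 fold change 0.41, adjusted p = 0.039). The count that rose rested on single libraries and on the processing: it was 13 without WT a, 3 without any 1 of the stch4-1 libraries and 3 with no filter. Length and GC content were read for nuclear genes only. The plastid-encoded genes were therefore not in the fits with a length or a GC trend removed, and their calls were not tested there. Plastid transcripts mostly lack long poly(A) tails, and the labels do not say how RNA was selected.

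Markers of other tissues were read beside these results. Of 16 root markers, 15 were tested, 0 rose and 11 fell, with a median log2 fold change of -0.40; no marker was at 0 in any library. The untested marker, NRT2.1, was under 0.5 FPKM in every library. IRT1, the root iron transporter, fell most (log2 fold change -1.99, adjusted p = 8.3e-06), and THAH, of thalianol synthesis, fell least (log2 fold change -0.17, adjusted p = 0.014). RHD6, EXPA18, EXPA7 and COBL9 did not pass, with log2 fold changes of 0.23, 0.21, 0.027 and -0.11. Of 8 stomatal lineage markers, 2 rose and 1 fell (FAMA, log2 fold change 0.30, adjusted p = 0.024; KAT1, log2 fold change -0.34, adjusted p = 0.0053), shares near those of all tested genes, and their sums of 55.2 to 58.8 FPKM in stch4-1 and 56.0 to 60.5 FPKM in WT overlapped.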

How the data were processed

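FPKM per gene were deposited by the authors, with a column for each library. Per the submitters' processing notes, TopHat2 and Cufflinks were used with the TAIR10 genome (versions, filters, strand use and the assignment of multiply matching reads: not given in the sources used here). Trizol extraction and DNase treatment preceded library construction, per the labels' protocols. For the 24 h samples, the treatment tag gives 24 °C and 4 h, which their titles contradict; neither these nor the 0 h samples were used here. Whether the 3 samples in each group are separate cultures is not stated, and p-values then reflect only how these samples vary, which may be technical. Libraries are called a, b and c in column order.

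Genes with at least 1 FPKM in at least 3 of 6 libraries were tested (19289, all 53 members among them). limma 3.58.1 in R 4.3.3 fitted both groups on log2(FPKM + 1), with trended eBayes and 2-sided tests, and p-values were adjusted by Benjamini-Hochberg across the tested genes; "rose" and "fell" mean an adjusted p under 0.05. The log2 fold changes share this scale and understate differences of low genes. The script was tested on simulated data first. Depth per library is known only as a ratio, which limits the precision of low genes most.

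Sequences, exon lengths and GC content came from RefSeq TAIR10.1, where 32810 of 33557 identifiers were found; joins used Python 3.11.15 with pandas 2.3.3. The members and lists were chosen with earlier results of these data known, so lists are described by counts and medians only. Values per library are given for each called member and, in each complex, for the members with the highest and lowest log2 fold change and the highest level; from each other list the called genes with the highest and lowest log2 fold change are named.

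Alternatives were a pseudocount of 0.1, no filter, a mean of at least 5 FPKM, quantile normalization, median-ratio scaling, no eBayes trend, removal of a length trend, and leaving out each library; removal of a GC trend, of GC and length trends, equal summed FPKM and a replicate block on the column number were added after seeing the data. A fit without both WT b and stch4-1 c was also run and is not reported, because those libraries had been picked by the members' own levels.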

Additional observations from a re-analysis of the deposited data

How the results depend on the processing

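With 18 members higher, 0 lower and a median log2 fold change of 0.21 as reported, pseudocount, a mean of at least 5 FPKM, median-ratio scaling, no eBayes trend and removal of a GC trend, or of GC and length trends, gave 13 to 27 members higher and 0 lower. The count of members higher was 11 with no filter, 9 with a length trend removed and 8 at equal summed FPKM, with 0 lower in each. Leaving out 1 library gave 10 (without stch4-1 a) to 23 (without WT b) members higher and 0 to 1 lower, the 1 being LHCB1.4 without stch4-1 c. Shares of all tested genes were tallied only for the settings where they are printed above. For the others, such as median-ratio scaling or leaving out stch4-1 a, a changed count cannot be set beside the whole fit.

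Quantile normalization gave 2 members higher (LHCB4.3 and PETE1) and 6 lower (PSAG, PSAK, PSAO, FD2, RBCS1B and RCA), and a median of -0.018. It sets the highest values of all libraries equal, and every member lies at the 90.9th percentile of level (that of LHCB4.3) or above. Under it the medians of LHCB (-0.022), PSA (-0.039), ATP synthase (-0.020) and Rubisco genes (-0.041) changed sign, as did LHCA1 (-0.12), LHCB1.1 (-0.11), LHCB1.2 (-0.081), LHCB2.1 (-0.054), LHCB2.2 (-0.0036), LHCB2.3 (-0.087), LHCB3 (-0.088), LHCB4.2 (-0.018), LHCB6 (-0.027), PSAD1 (-0.033), PSAD2 (-0.036), PSAE1 (-0.041), PSAF (-0.16), PSAG (-0.17), PSAH1 (-0.053), PSAH2 (-0.0046), PSAO (-0.17), PSBQ1 (-0.091), PSBQ2 (-0.17), PSBS (-0.013), PSBY (-0.065), PETC (-0.13), ATPD (-0.052), RBCS1B (-0.25), RBCS2B (-0.041), RBCS3B (-0.031), RCA (-0.19) and GAPA2 (-0.064); LHCB1.3 turned positive (0.20). Equal summed FPKM moved the median of all genes to -0.083 and turned the Rubisco median (-0.022) and LHCB2.3 (-0.0075), PSAF (-0.075), PSAG (-0.069), RBCS1A (-0.022), RBCS1B (-0.031) and RCA (-0.077). Removing a length trend turned PSAF (-0.042), PSAG (-0.13) and PSAO (-0.040), removing a GC trend LHCB1.3 (0.054), and removing both PSAG (-0.066). Over left-out libraries, log2 fold changes that crossed 0 were FD2 from -0.087 to 0.018, LHCB1.2 from -0.042 to 0.27, LHCB1.3 from -0.21 to 0.17, PSAF from -0.024 to 0.063, PSAG from -0.00058 to 0.065, PSAH1 from -0.037 to 0.37, PSAK from -0.19 to 0.017, PSBY from -0.0096 to 0.22, RBCS1B from -0.018 to 0.13 and RCA from -0.027 to 0.072. The cause of these changes was not tested.

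The columns of both genotypes end in the numbers 0 to 2, where the titles number replicates from 1, and nothing states that a shared number pairs libraries. Deviations from the group means correlated at 0.053, -0.13 and -0.036 between same-numbered libraries (19289 genes), and only stch4-1 a correlated best with its own number, so the numbers were not taken as pairs. A replicate block on them, added after seeing the data, left 11 members higher and 0 lower, and the share of all tested genes was not tallied under it. Depth is known only as a ratio between libraries (1 to 1.44), so counting error of single genes was not computed.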
